A study of Caenorhabditis elegans with 2 samples.

Results

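The 8 genes described here are heat-inducible chaperone genes of Caenorhabditis elegans that lie head to head in 4 divergent pairs. The small heat shock protein genes are hsp-16.1 with hsp-16.48, hsp-16.11 with hsp-16.49, and hsp-16.2 with hsp-16.41, and the Hsp70 genes are F44E5.4 with F44E5.5. They are 8 of 19973 protein-coding genes, and binding of the tagged protein SDZ-12 was read at their 5' ends. The set was selected on where the called summits of these libraries lay, with their ranks and signals known, so its values are a description and carry no test. The animals were L4 larvae of strain OP670, 71 hours old and of pooled sex, synchronised by starving hatched L1 larvae after bleaching. They carried the unc-119 allele tm4063 and the integrated array wgIs670, which holds unc-119(+) and an sdz-12 transgene tagged at its C-terminus with TY1, EGFP and 3xFLAG. Chromatin of whole animals was sheared to between 200 and 800 bp and precipitated for the tag with an antibody against GFP, in 2 biological replicates of 1 group. The line is 1 transgenic strain, the labels name no heat treatment, and no library of an untagged strain was analysed here.

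Small heat shock proteins of the alpha-crystallin family hold unfolding proteins in a soluble state, and Hsp70 proteins refold such clients with energy from ATP. In C. elegans the hsp-16 genes are expressed at a very low level without stress and rise steeply on heat shock, and reporters of hsp-16.2 are widely used to follow the response. The heat shock factor HSF-1 binds as a trimer to heat shock elements, in which the unit GAA and its inverse TTC alternate.

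A call is a genomic interval with a summit and a signal, the authors' own score for the interval, with a scaling that the labels and files do not state. Calls were ranked by signal within each of 4 lists. The lists of replicate 1, replicate 2 and the pooled reads held 30000 calls each, weak ones included, and the optimal list held 665, which were the 665 strongest of the pooled list. A gene was counted where a summit lay in its promoter window, from 1000 bp upstream to 200 bp downstream of its annotated 5' end. Signals ran from 136 to 538 in the optimal list, with a median of 164, from 27.6 to 293 in replicate 1 and from 24.8 to 294 in replicate 2. Read depth is unknown.

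Sequence between the 5' ends is shown for both called pairs and for an uncalled pair, to set the called sequence beside an uncalled one. The first sequence is the interval called between F44E5.4 and F44E5.5, chrII:11759362-11759574. The next is the whole region between the 5' ends of hsp-16.2 and hsp-16.41, chrV:1804958-1805177. The last is the central 300 bases between hsp-16.1 and hsp-16.48, chrV:9087807-9088106, where no call was made. All are on the plus strand of assembly WBcel235 (ce11) and were read from its RefSeq copy. Capitals mark 3-unit heat shock elements, searched as GAA, TTC and GAA with 2 free bases between units, on both strands. The F44E5 interval is only part of the 350 bp between those 5' ends. It cuts the first run of elements, whose remaining bases at its start are partly in lower case, and leaves out the last, so both runs are added whole, from chrII:11759359-11759381 and chrII:11759582-11759604.
F44E5.4/F44E5.5: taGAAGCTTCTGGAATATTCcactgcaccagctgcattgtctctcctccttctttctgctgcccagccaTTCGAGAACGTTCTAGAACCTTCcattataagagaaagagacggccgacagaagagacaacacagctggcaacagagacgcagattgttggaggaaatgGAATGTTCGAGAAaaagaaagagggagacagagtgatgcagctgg
F44E5.4/F44E5.5, first run: TTCTAGAAGCTTCTGGAATATTC
F44E5.4/F44E5.5, last run: GAATATTCCAGAAGCTTCTAGAA
hsp-16.2/hsp-16.41: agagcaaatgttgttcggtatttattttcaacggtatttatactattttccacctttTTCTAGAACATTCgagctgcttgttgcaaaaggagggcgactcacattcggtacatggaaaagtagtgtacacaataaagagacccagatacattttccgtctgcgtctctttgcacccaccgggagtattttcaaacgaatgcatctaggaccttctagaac
hsp-16.1/hsp-16.48: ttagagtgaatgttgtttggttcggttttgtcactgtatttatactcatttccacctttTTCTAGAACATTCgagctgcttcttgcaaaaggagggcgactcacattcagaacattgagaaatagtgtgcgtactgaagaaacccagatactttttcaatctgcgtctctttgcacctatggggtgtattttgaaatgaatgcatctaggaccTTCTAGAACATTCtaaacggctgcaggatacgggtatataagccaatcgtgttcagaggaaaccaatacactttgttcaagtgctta

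Summits lay in the promoter windows of 4 of the 8 genes in the optimal list. They were F44E5.4, F44E5.5, hsp-16.2 and hsp-16.41, against 1.61% of all protein-coding genes. The same 4 genes had a summit in the pooled list (31.6% of all genes), in replicate 1 (32.1%) and in replicate 2 (30.9%). They also had one among the 665 strongest calls of replicate 1 (1.56% of all genes), the 665 strongest of replicate 2 (1.49%) and the 332 strongest optimal calls (0.971%). The list was chosen on these calls, so nothing is read from its share. In both called pairs 1 summit lay in the windows of both genes, and no other annotated gene had that summit in its window. Hence the 4 genes rested on 2 optimal calls, and which gene of a pair the binding belongs to cannot be told from them.

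**Figure D1:**
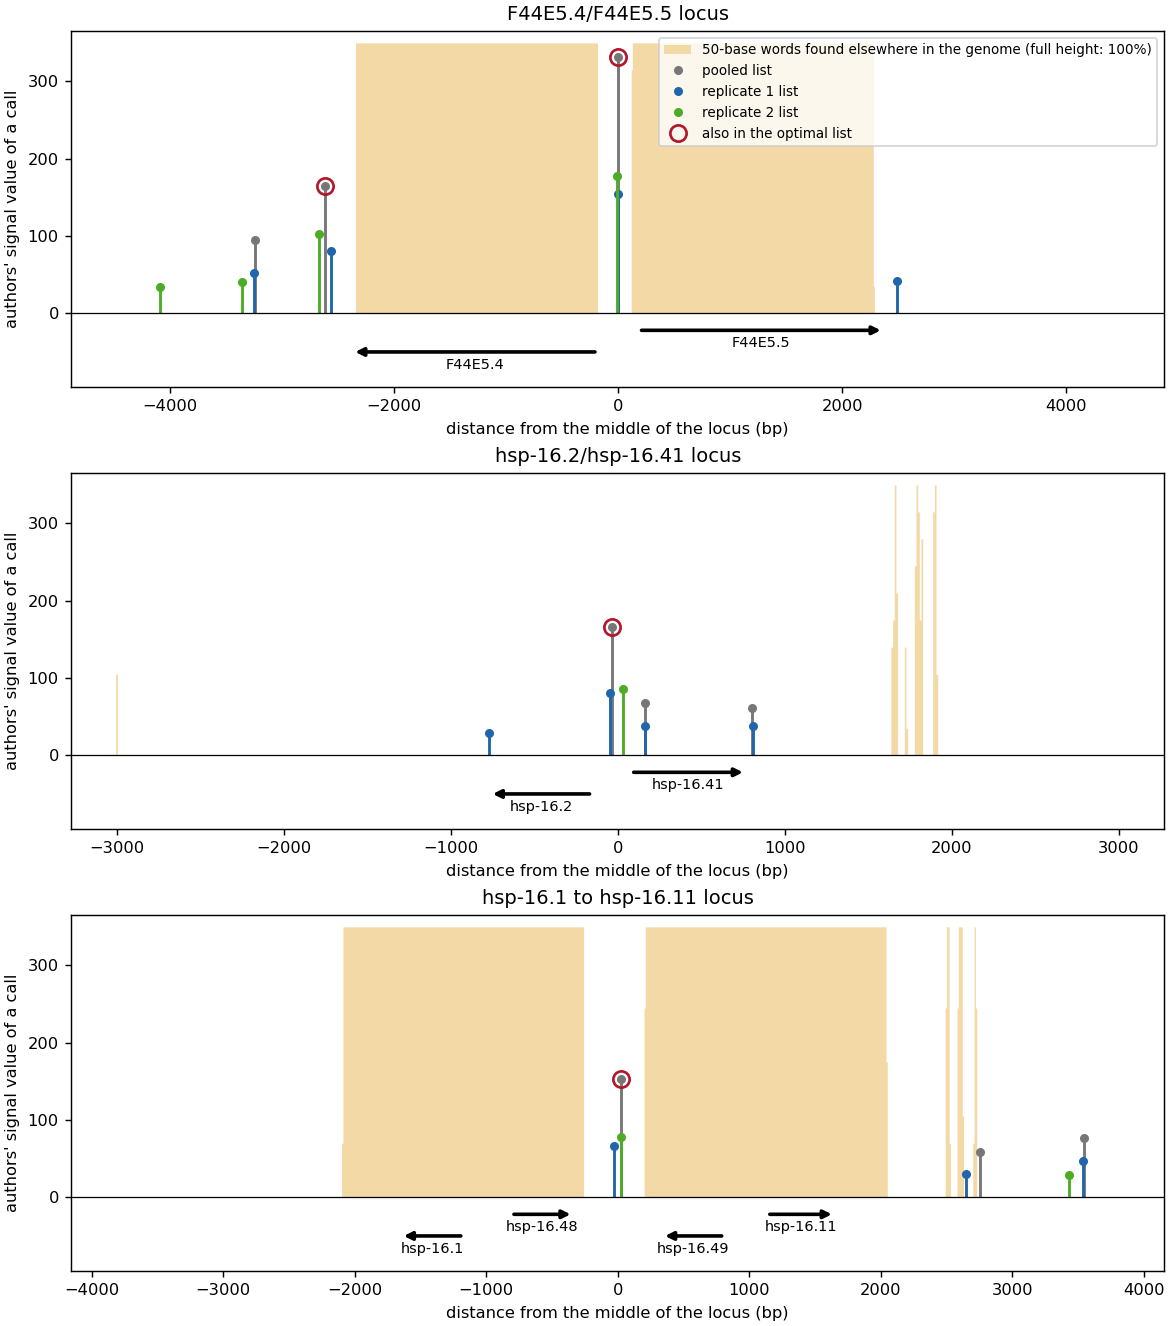
Signal of each call (y axis) against the distance in bp of its summit from the middle of the locus (x axis) at the 3 loci that hold the 8 genes. Grey, blue and green stems are the pooled, replicate 1 and replicate 2 lists, red circles are optimal calls, arrows are genes, and tan shading is the share of 50-base words found elsewhere in the genome, with full height at 100%. Optimal calls lie between the 5' ends at F44E5.4/F44E5.5 and hsp-16.2/hsp-16.41, beyond the 3' end of F44E5.4, and in the spacer between the 3' ends of hsp-16.48 and hsp-16.49.

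F44E5.4 (WBGene00009691, chrII:11757107-11759311, minus strand) and F44E5.5 (WBGene00009692, chrII:11759662-11761861, plus strand) encode Hsp70 proteins, and 350 bp separate their 5' ends. Their call ranked 20 of 665 in the optimal list with a signal of 332. It ranked 36 in replicate 1 with a signal of 155, and 14 in replicate 2 with a signal of 177. The call was thus near the top of every list. The optimal summit, at position 11759488, lay 177 bp upstream of F44E5.4 and 174 bp upstream of F44E5.5. Replicate 1 had its summit at the same base and replicate 2 had its summit 13 bp away, against a median of 22 bp between replicates over the 650 optimal calls matched within 200 bp in both. The interval was 213 bp wide in the optimal list, 167 bp in replicate 1 and 210 bp in replicate 2. Of the 665 optimal calls 19 were narrower than the full width of 420 bp, and 12 of these were among the 20 strongest, this call included. Most of the 12 stood at the very top, at ranks 1 to 7, 9, 12 and 13. The others were at ranks 19 and 20, and the next narrow call ranked 34.

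A further optimal call at this locus lay beyond the 3' end of F44E5.4, outside every promoter window of the 8 genes. Its summit was 241 bp past the gene's end, within the non-coding RNA gene F44E5.16. It ranked 333 in the optimal list with a signal of 164, 531 in replicate 1 with a signal of 80.1, and 161 in replicate 2 with a signal of 102. The replicate summits were 111 bp apart. In the replicates its signal was therefore lower than that of the call between the genes, in both libraries.

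hsp-16.2 (WBGene00002016, chrV:1804334-1804957, minus strand) and hsp-16.41 (WBGene00002018, chrV:1805178-1805875, plus strand) encode small heat shock proteins, and 220 bp separate their 5' ends. Their shared call ranked 325 in the optimal list with a signal of 166, close to the list's median. It ranked 523 in replicate 1 with a signal of 80.4, and 286 in replicate 2 with a signal of 86.4. The optimal summit, at position 1805067, was 110 bp upstream of hsp-16.2 and 111 bp upstream of hsp-16.41, near the middle of the region. The replicate 1 summit was 102 bp upstream of hsp-16.2. The replicate 2 summit was 42 bp upstream of hsp-16.41 and 77 bp from that of replicate 1, farther apart than the upper quartile of 59.8 bp over all matched optimal calls. The position of this summit within the region therefore differed between the libraries.

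Weaker calls lay near the hsp-16.2/hsp-16.41 call in 2 of the lists. In the pooled list they ranked 12832, with a summit inside hsp-16.41 and a signal of 67.5, and 17330, with a signal of 61.0. In replicate 1 the corresponding calls ranked 13317 and 13123, with signals of 38.1 and 38.3, and another ranked 26262 with a signal of 29.4. Replicate 2 had none of them. All of them ranked far below the 665 strongest calls of their list.

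**Figure D2:**
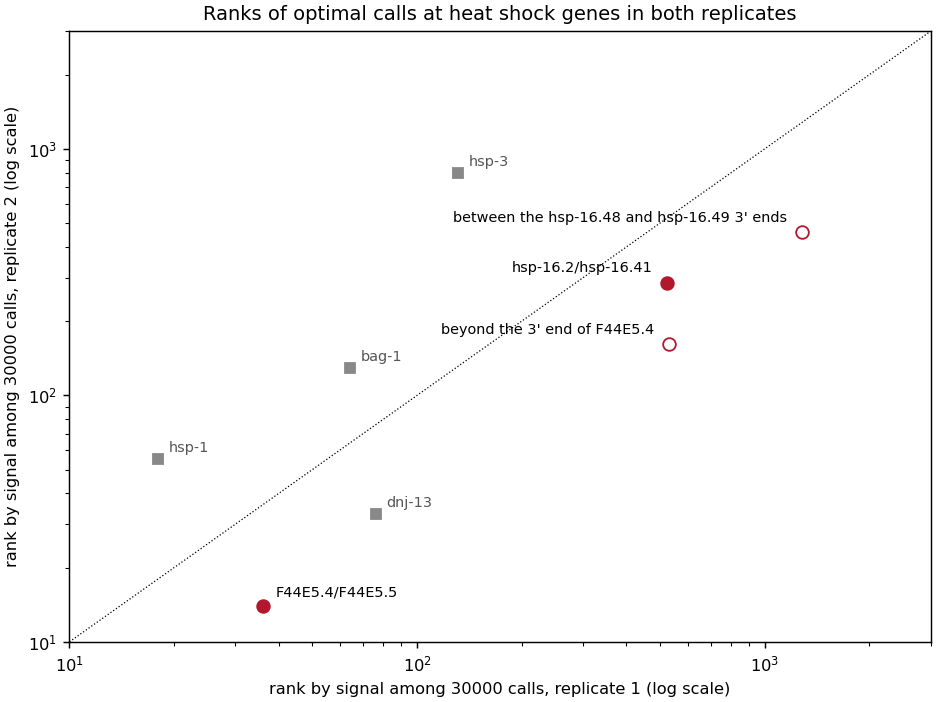
Rank by signal in replicate 1 (x axis, log scale) and replicate 2 (y axis, log scale) of optimal calls at heat shock genes, where rank 1 is the strongest. Filled red points are promoter calls of the 8 genes, open red points are calls at 3' sides of their loci, grey squares are hsp-1, hsp-3, bag-1 and dnj-13, and the dotted line marks equal ranks. The F44E5.4/F44E5.5 call, at 36 and 14, stands below and left of the hsp-16.2/hsp-16.41 call, at 523 and 286.

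The other 4 small heat shock protein genes had no summit in their promoter windows in any of the 4 lists. They are hsp-16.1 (WBGene00002015, chrV:9087293-9087782, minus strand), hsp-16.48 (WBGene00002019, chrV:9088131-9088617, plus strand), hsp-16.49 (WBGene00002020, chrV:9089280-9089766, minus strand) and hsp-16.11 (WBGene00002017, chrV:9090077-9090604, plus strand). These genes lie in 2 copies facing each other, an arm of 1881 bp and an arm of 1891 bp, identical in inverted order over 1881 bp. The regions between the 5' ends, of 348 and 310 bp, were identical over 310 of 310 aligned bases. hsp-16.1 and hsp-16.11 were identical over 490 of 490 bases and hsp-16.48 and hsp-16.49 over 487 of 487, so the copies share their sequence throughout.

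An optimal call lay between the arms, in the 414 bp spacer that parts the 3' ends of hsp-16.48 and hsp-16.49. It ranked 426 in the optimal list with a signal of 153, 1279 in replicate 1 with a signal of 66.2, and 458 in replicate 2 with a signal of 77.7. Its optimal summit was 1192 bp upstream of hsp-16.1 and 1103 bp upstream of hsp-16.11, just outside the limit of 1000 bp. Counting genes by any overlap of the called interval with the window, or by a window reaching 2000 bp upstream, added hsp-16.1 and hsp-16.11 through this call, which gave 6 of the 8 genes in the optimal list. The farthest optimal summit inside the windows of the 8 genes was 177 bp from a 5' end. In every list 1 summit lay in the spacer and 0 lay in the arms.

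Repeated sequence was measured at each pair beside the calls. Within 500 bp of the middle of each pair, the share of 50-base words that occur elsewhere in the genome was 100% for hsp-16.1/hsp-16.48 and 100% for hsp-16.11/hsp-16.49. It was 0% for hsp-16.2/hsp-16.41 and 69.9% for F44E5.4/F44E5.5, against 6.49% of words in the genome. The F44E5 locus also has inverted arms, each 2209 bp long and identical over 2209 bp, but its 252 bp spacer lies between the 5' ends, where 1.66% of words were repeated. The arms reach into the 350 bp between those 5' ends, and with words of 36 bases the share there was 13.3%. At this locus again 1 summit lay in the spacer and 0 in the arms in every list. The optimal interval started 6 bp inside one edge of that spacer and ended 33 bp inside the other. The hsp-16 and F44E5 loci thus differ in which ends of the genes face the unrepeated spacer, the 3' ends in the first and the 5' ends in the second.

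Over all genes, windows made mostly of repeated words seldom held a summit. Of 246 genes with at least 90% of such words, among them hsp-16.1, hsp-16.48, hsp-16.49 and hsp-16.11, 0 had a summit in the optimal, pooled, replicate 1 or replicate 2 list (0% each). If 0 is taken to allow up to 3 genes, as for independent genes, the share could reach 1.22% in each list. Copies such as these 4 are not independent, so the true limit may be higher. Of 499 genes with at least 50%, 2 had an optimal summit (0.401%), and these were F44E5.4 and F44E5.5. In the pooled list the share was 3.21%, in replicate 1 it was 5.01% and in replicate 2 it was 3.61%. Of 19474 genes under 50%, the shares were 1.64% in the optimal list, 32.3% in the pooled list, 32.8% in replicate 1 and 31.6% in replicate 2. The labels and files do not state how reads matching several places were treated. The part of repeated sequence in the missing calls was not tested, and no call at these 4 genes is no measure of binding there.

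**Figure D3:**
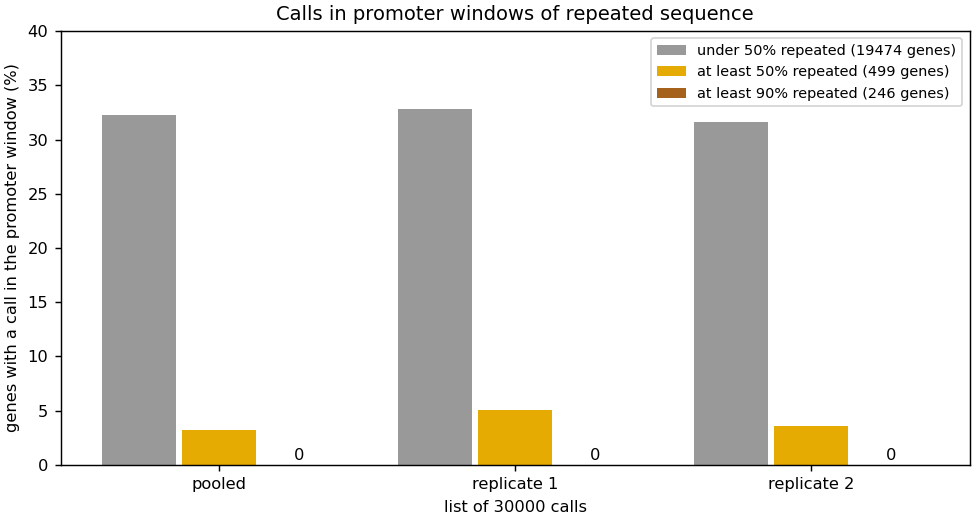
Percent of protein-coding genes with a summit in the promoter window (y axis) in each of the 3 lists of 30000 calls (x axis), with bars for genes whose windows hold under 50%, at least 50% and at least 90% of 50-base words repeated elsewhere in the genome. The bars for under 50% stand between 31.6% and 32.8%, those for at least 50% between 3.21% and 5.01%, and those for at least 90% are at 0% in all 3 lists.

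All 8 promoter windows held a 3-unit heat shock element, against 7.68% of 19973 windows of the same length. These are not 8 separate observations, since both genes of a pair share their elements and hsp-16.1/hsp-16.48 and hsp-16.11/hsp-16.49 are copies. The genes were also listed as heat-inducible. The letters TATAAA, on either strand, were also in all 8, but in 80.0% of all windows as well. Among genes with an element, 2.54% had an optimal summit, 31.6% a pooled summit, 30.7% a replicate 1 summit and 30.8% a replicate 2 summit. Among genes with none the shares were 1.53%, 31.6%, 32.2% and 30.9%, in the same order. Among the 260 genes with 2 or more elements they were 2.69%, 25.8%, 26.2% and 24.2%. The 8 genes are among those 260, and 4 of the 7 with an optimal summit are of this set, chosen on these calls. The same 4 are among the 39 genes with an element and an optimal summit. In the lists of 30000 calls the shares with an element were near those without one, and the shares with 2 or more elements were lower. In the optimal list the shares with an element were higher. In every list the shares with an element include the 4 called genes. They also include the 4 uncalled genes, whose windows are mostly repeated words, and repeated windows were not set apart. Nothing is therefore read from these shares in any list.

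The F44E5.4/F44E5.5 region held 10 overlapping element matches in 4 runs that covered 82 bases. That was the highest number among 864 regions between divergent protein-coding neighbours 100 to 500 bp apart, and the next highest was 2. It was not the highest over all promoter windows. There 27 protein-coding genes (0.135%), F44E5.4 and F44E5.5 included, held 10 or more matches. An optimal summit lay in 2.66% of these 864 regions, both called pairs among them. The optimal F44E5 summit fell between runs, with the nearest element centres 41 and 48 bp away. Of all 665 optimal summits, 652 had no element within 100 bp, 12 had 1 and this summit had 4. An element thus lay near 1.95% of optimal summits, those of both called pairs included. In stretches of the same length centred upstream of all 19973 5' ends, the share was 1.34%. In the 864 divergent regions, which vary in length, it was 2.31%.

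The hsp-16 pairs each had 2 elements, 154 bp apart, whether or not a call was made. In hsp-16.2/hsp-16.41 the element nearer hsp-16.41 runs across its annotated 5' end, so the printed region shows only part of it and it stays in lower case there. The hsp-16.2/hsp-16.41 summit lay between the elements in every list, 46 and 108 bp from their centres in the optimal list, 38 and 116 bp in replicate 1 and 115 and 39 bp in replicate 2. Its region was identical to that of hsp-16.1/hsp-16.48 at 189 of 223 aligned positions (84.8%). The latter region is longer, 348 against 220 bp, and its bases beyond the aligned stretch were not counted. Over that stretch the called and uncalled hsp-16 regions were thus close in sequence, and they were alike in the spacing of their elements.

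**Figure D4:**
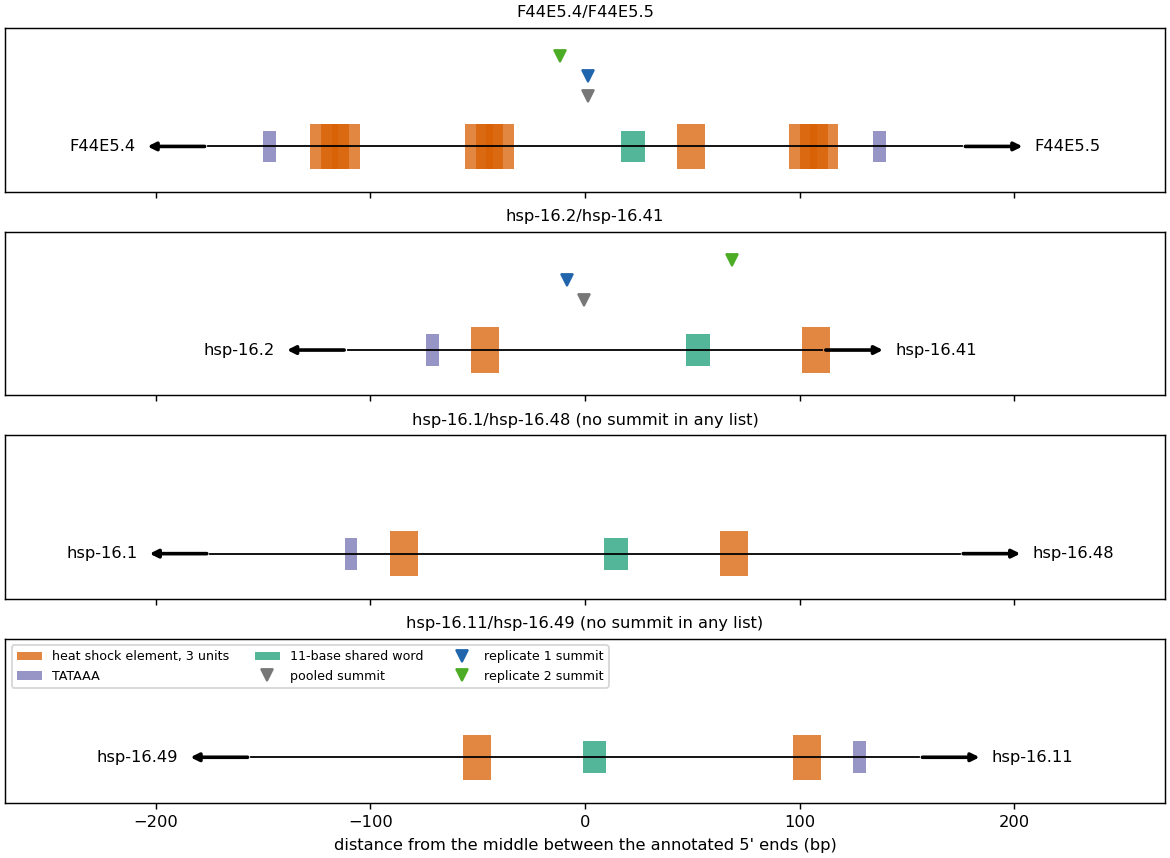
Regions between the 5' ends of the 4 pairs, with the distance in bp from the middle on the x axis and arrows for the genes. Orange boxes are 3-unit heat shock elements, purple boxes TATAAA, green boxes the 11-base word found in all 4 regions, and triangles the summits in the pooled, replicate 1 and replicate 2 lists. Summits fall between elements in the upper pairs, and the lower pairs have none.

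The longest word present in all 4 regions on either strand had 11 bases, and it was found after the sequences were seen. It is shown in capitals with 8 bases on each side, read 5' to 3' on the strand that carries it, because no longer exact word is common to all 4 regions. The first is at chrII:11759496-11759522, plus strand, the second at chrV:1805107-1805133, minus strand, and the third at chrV:9087958-9087984, minus strand.
F44E5.4/F44E5.5: ctggcaacAGAGACGCAGAttgttgga
hsp-16.2/hsp-16.41: gggtgcaaAGAGACGCAGAcggaaaat
hsp-16.1/hsp-16.48: aggtgcaaAGAGACGCAGAttgaaaaa
The word was in 3.46% of all promoter windows. It lay within 100 bp of 1.95% of optimal summits, a shorter stretch than the promoter window, so these shares are not comparable. In stretches of that shorter length centred upstream of all 19973 5' ends, the share was 1.13%. In the 864 regions between divergent neighbours, which vary in length and include these 4 regions, it was 2.89%. Both called pairs are among the optimal summits with the word nearby, and no test was run on these shares of the word. Genes with it had a summit in 3.62% of cases in the optimal list, 42.8% in the pooled list, 41.2% in replicate 1 and 40.2% in replicate 2. Genes without it had one in 1.54%, 31.2%, 31.8% and 30.5%. All 8 genes carry the word, and 4 of the 25 genes with it and an optimal summit are of this set, chosen on these calls. The uncalled pairs carry the word as well.

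GC content at these summits was below the median of all optimal calls. Within 50 bp of the F44E5 summit it was 46.5%, and at the hsp-16.2/hsp-16.41 summit 43.6%, against that median of 47.5%. At the spacer call between hsp-16.48 and hsp-16.49 it was 39.6%, the lowest of these 3.

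Of 40 other heat shock genes, the optimal list held a promoter summit for 4, against 1.61% of all protein-coding genes. The pooled list held one for 24 of the 40, replicate 1 for 23 and replicate 2 for 24, against 31.6%, 32.1% and 30.9% of all genes. No test was run on these counts. Those with an optimal summit are given by group. They were 0 of 11 other small Hsp genes, 2 of 10 other Hsp70 family genes, 2 of 15 genes of Hsp90 and its partners and 0 of 4 heat shock regulators. hsp-1, the constitutive cytosolic Hsp70, ranked 28 with a signal of 308, and 18 and 55 in replicates 1 and 2. hsp-3, an Hsp70 of the endoplasmic reticulum, ranked 235 with a signal of 182, and 131 and 798 in the replicates. bag-1, a nucleotide exchange partner of Hsp70, ranked 77 with a signal of 243, and 64 and 129 in the replicates. dnj-13, a DnaJ protein, ranked 45 with a signal of 280, and 76 and 33 in the replicates. The F44E5 call thus ranked above all 4 of these in the optimal list, and the hsp-16.2/hsp-16.41 call below all 4. Neither order held in both replicates. In replicate 1 the F44E5 call, at 36, stood below hsp-1, and in replicate 2 the hsp-16.2/hsp-16.41 call, at 286, stood above hsp-3.

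The heat-inducible gene hsp-70 had no optimal summit. Its strongest pooled call ranked 7079 with a signal of 79.8, and its replicate calls ranked 17749 and 8556. hsf-1, which encodes the heat shock factor, had a pooled call at rank 19794 with a signal of 58.0 and a replicate 1 call at rank 9198, and no call in replicate 2. Both genes therefore lay among the weak calls.

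Of 251 promoter calls matched in both replicates, the nearest in rank to the F44E5 call, by distance on log2 ranks, was at cbp-1, a CBP/p300 acetyltransferase gene, with ranks 41 and 17. The next was a call shared by Y17G9B.5 and the ribosomal protein gene rpl-20, with ranks 33 and 21. Nearest to the hsp-16.2/hsp-16.41 call was a call shared by W09C5.12 and the Integrator subunit gene ints-4, with ranks 582 and 263. The next was at xbp-1, which encodes a transcription factor of the unfolded protein response, with ranks 463 and 336.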

How the data were processed

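SDZ-12 binding was measured by ChIP-seq in 2 biological replicates of 1 group. The deposited lists, on ce11 per the labels, hold for each call the authors' signal value and a −log10 q-value. Text files deposited beside the lists say that calls were made against a control, on each replicate and on the pooled alignments, and that the optimal list came from those 3 lists. The caller, its thresholds, the signal's scaling, the read length and the treatment of reads matching several places are not given in the sources used here. Calls were ranked by signal, and summits written 1-based. Genes came from Ensembl release 115. It gives hsp-16.1 and hsp-16.11 one name, and likewise hsp-16.48 and hsp-16.49, so they were told apart by gene ID and by RefSeq symbols at the same coordinates. Words of 50 bases were counted on both strands of the RefSeq copy of WBcel235. Of 41 listed heat shock names 40 matched a protein-coding gene. Named were the 8 genes, listed heat shock genes with an optimal summit, hsp-70, hsf-1, and for each called pair the 3 genes nearest in rank. The genes, lists and rules were chosen with earlier results of these data known. No test was run. Alternatives were window length, interval overlap, nearest gene, a stricter list, single replicates, ranking column, summit distance, motif and word length. Python 3.11.15, NumPy 2.4.6, pandas 2.3.3, Biopython 1.88 and matplotlib 3.10.9 were used, and the steps were tested on simulated data.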

Additional observations from a re-analysis of the deposited data

How the results depend on the processing

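Of 44 alternative values, 10 moved by more than the limit set for them, which was 1.5 times for a count, the spread between replicates for a rank and a binomial interval over words for a repeated share. With each summit given to its nearest 5' end alone, 2 of the 8 genes had an optimal summit in place of 4, since each call then counts for 1 gene of its pair. With windows reaching 2000 bp upstream, 6 genes had a summit in the optimal list, 7 in the pooled list, 7 in replicate 1 and 6 in replicate 2, in place of 4, as the longer window takes in the spacer call for hsp-16.1 and hsp-16.11, and for hsp-16.49 a weak call beyond hsp-16.11 in the pooled and replicate 1 lists. Counted by interval overlap, 6 genes had a call in each of the 4 lists. Both settings left 2 pairs that share an optimal call. Ranked by −log10 q-value, the F44E5 call came at rank 1 in the optimal list, rank 1 in the pooled list and rank 1 in replicate 1, where 243, 243 and 138 calls share the highest value, and at rank 1 in replicate 2, where 227 share it. With summits required within 50 bp, 1 of the 2 optimal summits was matched in both replicates. Words of 36 bases gave a repeated share of 1.40% round hsp-16.2/hsp-16.41 and 72.7% round F44E5.4/F44E5.5, and words of 100 bases gave 64.9% round the latter. Using the 665 strongest calls of 1 replicate alone, from 4 to 4 genes and from 2 to 2 pairs had a call. No paired analysis was possible because there was 1 group and no comparison between groups. Depth is unknown, so how many of the weak calls are noise cannot be read from the lists, and 2 replicates of 1 line limit what the agreement between them shows.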
